A study of Homo sapiens with 12 samples.

Results

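The DNA replication and S phase genes are 46 genes whose products prepare replication origins, unwind DNA, copy it, supply nucleotides and pack the new strands into chromatin. They were taken by gene name from the count table, where all 46 were found among 58735 genes, and all 46 passed the filter on low counts that left 17829 genes for testing. RNA-Seq libraries had been made from A549, an established lung adenocarcinoma cell line, in 4 groups of 3 libraries each. Attached control cells and attached GFI1 cells were labelled untreated, and floating control cells and floating GFI1 cells had been forced into suspension for 48 hours. GFI1 cells carried the genotype of GFI1 overexpression, from a lentivirus that also encodes GFP, with infected cells sorted by their GFP signal, and all cells were grown in RPMI1640 with 10% FBS. The labels do not say whether control cells carried an empty vector, and no source used here says that the 3 libraries of a group came from separate cultures, so p-values measure the spread between these libraries only.

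In a dividing cell, the origin recognition complex, CDC6 and CDT1 load the MCM2-7 ring onto DNA before S phase, a step called licensing. The kinase CDC7 with DBF4 then turns the ring into an active helicase together with CDC45 and the GINS complex, and the polymerases, the sliding clamp PCNA and its loader RFC copy the strands. Many of these genes are transcribed in late G1 and S phase under E2F transcription factors, so their mRNAs are more abundant in cultures with many replicating cells. GFI1 is a zinc-finger transcriptional repressor of blood and neuroendocrine cells.

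Total counts were between 17014188 and 20748677 per library. GFI1 itself had 4 to 12 counts in the control libraries and 5154 to 12796 counts in the GFI1 libraries, as labelled. Among 9 markers of epithelial cells and A549, none was at 0 throughout a group, although EPCAM and KRT19 averaged only 2.25 and 1.11 CPM (counts divided by the TMM-scaled library size) in attached control. The summed level of the 9 was 22110 to 23360 CPM in attached control and 9119 to 9297 CPM in attached GFI1. It was 19510 to 20050 CPM in floating control and 6894 to 7894 CPM in floating GFI1, and 7 of the 9 markers were lower with GFI1 in attached and in floating cells (E-cadherin, CDH1, went from a mean of 119.8 to 6.45 CPM in attached cells), whose part in the results was not tested. The 4 endothelial markers summed to 0.109 to 0.344 CPM in attached control and 3.55 to 5.21 CPM in attached GFI1, and to 0.283 to 0.662 CPM in floating control and 4.96 to 5.52 CPM in floating GFI1, with CDH5 and VWF, the 2 that could be tested, higher with GFI1 in both backgrounds and KDR at 0 in all GFI1 libraries. The 6 fibroblast markers summed to 13.0 to 15.2 CPM in attached control, 9.83 to 10.8 CPM in attached GFI1, 9.18 to 10.7 CPM in floating control and 7.56 to 9.54 CPM in floating GFI1. Of these, PDGFRB was higher by 3.99 on the log2 scale when GFI1 was set against control in attached cells (adjusted p = 1.72e-08), COL1A1 changed by -1.03 there (adjusted p = 1.52e-08) and DCN was at 0 in all 12 libraries. The 6 blood cell markers summed to 5.27 to 8.21 CPM in attached control, 4.73 to 5.76 CPM in attached GFI1, 11.3 to 14.7 CPM in floating control and 6.86 to 7.72 CPM in floating GFI1, most of it CD14, with CD3E of T cells at 0 in all 12 libraries. The part of these markers in the results was not tested.

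The GFI1 level was not equal in attached and floating cells. It was 290.4, 294.4 and 285.6 CPM in attached GFI1 and 544.6, 705.5 and 430.2 CPM in floating GFI1, so the groups did not overlap, and in comparisons of GFI1 cells across attachment this level and suspension cannot be told apart. In floating GFI1, replicate 3 had the lowest GFI1 level and stood above the other 2 libraries for the replication genes, at a summed 2374 CPM against 2146 and 2130 CPM. Those other 2 libraries differed in GFI1 level (544.6 and 705.5 CPM) but hardly in this sum. A relation between the GFI1 level and the sum was not tested.

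The replication genes were highest in attached control cells, lower with GFI1, lower again in suspension, and lowest where both were combined. Their summed level was 4635 ± 71.8 CPM (SD, n = 3) in attached control, 3299 ± 27.9 CPM in attached GFI1, 3088 ± 31.6 CPM in floating control and 2217 ± 137 CPM in floating GFI1. In raw counts, the 46 genes took 0.438% of all counts in attached control and 0.232% in floating GFI1. Attached control had the highest mean for 44 of the 46 genes, floating GFI1 had the lowest mean for 44, and 37 genes followed the full order of attached control, attached GFI1, floating control and floating GFI1. These counts of order were not made over all genes tested, so how common such an order is was not measured. In bulk RNA, fewer cells in S phase and less of these mRNAs per cell cannot be told apart.

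With GFI1 in attached cells, 43 of the 46 genes fell, 0 rose and 3 did not pass the test (edgeR quasi-likelihood test, Benjamini-Hochberg adjusted p of 0.05 or less). Among all genes tested, 32.8% were lower and 29.5% were higher in this comparison. The median log2 fold change was -0.47 for the replication genes and -0.01 for all genes tested. With GFI1 in floating cells, 41 fell, 0 rose and 5 did not pass, beside 31.1% lower and 29.3% higher among all genes, with a median of -0.42 against 0.01. All GFI1 libraries lay below all control libraries for 44 of the 46 genes when attached, beside 34.8% of all genes tested, and for 38 when floating, beside 32.7%. The 2 GFI1 comparisons share no library. Scaling by library totals alone moved the median of all genes to 0.14 in both, the split among all genes from 5844 lower and 5258 higher to 4375 and 7001 in attached cells and from 5547 and 5223 to 4308 and 6840 in floating cells, and the median of the 46 to -0.319 and -0.286.

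The median change with suspension was larger. In control cells, 45 of the 46 genes fell, 0 rose and PCNA alone did not pass the test, beside 20.5% lower and 19.6% higher among all genes, with a median log2 fold change of -0.69 against 0.01. In GFI1 cells, all 46 fell, beside 16.3% lower and 15.0% higher among all genes, with a median of -0.58 against 0.00. Most single changes were under 2-fold: with a requirement of at least 2-fold as well, the counts were 0 for GFI1 in attached cells, 0 for GFI1 in floating cells, 1 for suspension in control cells (CLSPN) and 1 for suspension in GFI1 cells (MCM5). Among all genes tested, 8.51%, 8.82%, 1.40% and 0.824% were lower by this rule in these 4 comparisons. Between attached control and floating GFI1, all 46 genes fell, beside 34.7% lower and 33.7% higher among all genes, with a median of -1.06 against 0.02 and a range from -1.78 (GINS2) to -0.34 (RPA2). At 2-fold or more, 28 of the 46 fell between these 2 groups, beside 10.4% of all genes. With library totals alone the split among all genes moved here from 6195 lower and 6015 higher to 4957 and 7466, and the median of all genes to 0.17.

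**Figure D1:**
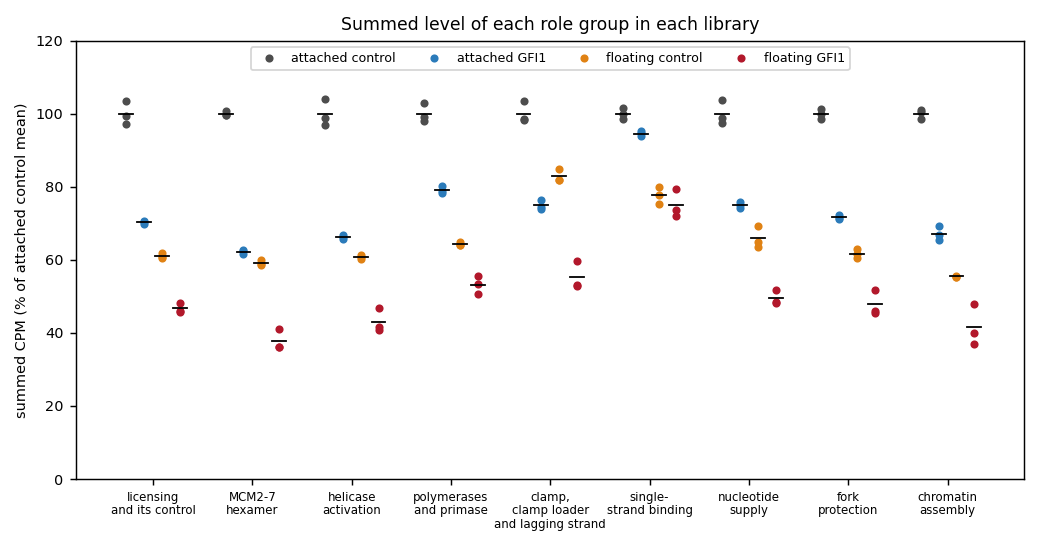
Summed CPM of the genes in each of the 9 role groups, as a percentage of the attached control mean, with 1 point per library and a bar at the mean of 3 libraries. The MCM2-7 genes reached 37.7% ± 2.86 (SD) in floating GFI1, the lowest of the 9 groups, while the single-strand binding genes stayed at 74.9% ± 3.85.

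To compare the sizes of the single changes without shared libraries, floating control was set against attached GFI1, a comparison added after the values were seen. Here 25 of the 46 genes were lower in floating control, 4 were higher and 17 did not pass the test, beside 27.9% lower and 29.5% higher among all genes, with a median of -0.16 against -0.01. The 4 higher genes were PCNA (log2 difference 0.34, adjusted p = 1.47e-06), RFC2 (0.29, adjusted p = 0.000586), MCM3 (0.25, adjusted p = 0.000413) and RFC4 (0.22, adjusted p = 0.00877), so for these 4 the level was lower with GFI1 alone than with suspension alone. The lower count depends on the scaling: with library totals alone it was 39 of 46, while the split among all genes moved from 4974 lower and 5258 higher to 6781 lower and 4021 higher. MCM6, TYMS and RRM1 lost their calls in this comparison without some single libraries, MCM6 without attached control 3, attached GFI1 1 or 2, or floating control 1 or 3 (adjusted p from 0.0521 to 0.185), TYMS without attached GFI1 2 or floating control 1 (0.055 and 0.0815) and RRM1 without floating control 1 (0.0807).

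The bases just before the starts of these genes were searched for letters that E2F factors are known to bind. RefSeq promoter sequence (GRCh38.p14) was at hand for 41 of the 46 (all but MCM4, MCM5, GINS4, RPA2 and RPA3), and the 250 bases before each gene's first listed start were searched on both strands. The letters TTTCGCGC, TTTGGCGC or TTCCCGC (whose reverse complement reads GCGGGAA; the motifs may overlap) were in 18 of the 41 windows, or 43.9%, against 6.45% of all 27305 promoters and 9.85% of the 11415 promoters of tested genes. CCAAT was in 23 of 41 (56.1%, against 33.0% of all promoters and 34.4% of those of tested genes), and the GFI1 core letters AAATC with GC placed 3 or 4 bases further on were in 6 of 41 (14.6%, against 4.65% and 4.04%). The cell cycle letters TTTGAA or TTCGAA, typical of genes of G2 and M phase, were in 2 of 41 (4.88%, against 14.6% and 9.62%). A match is only a match of letters, and these libraries do not measure binding. The study's ChIP-Seq of tagged GFI1 in A549 cells placed MCM4, MCM5, MCM6, RFC4 and DBF4 among the genes it reports as bound and downregulated. The downregulated part of that report comes from the study's own RNA-Seq of A549 cells, so it is not separate from the changes given here. The study also reports GFI1 peaks at the promoters of a large number of genes. Whether the named genes stand out among those was not tested. Those ChIP-Seq data were not used here.

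Shown here are 120 bases before the RefSeq start of 4 genes, chosen as the gene with the largest combined change (GINS2), an MCM gene with the long E2F letters (MCM6) and 2 genes with an interaction (PCNA with E2F letters, ORC6 without). Each window was placed so that it holds no annotated exon base, and each is read 5′ to 3′ on the gene's strand with E2F letters and CCAAT (or its reverse complement ATTGG) in capitals.
GINS2: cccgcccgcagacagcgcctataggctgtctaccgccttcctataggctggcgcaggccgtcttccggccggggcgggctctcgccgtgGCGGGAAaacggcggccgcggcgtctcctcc
MCM6: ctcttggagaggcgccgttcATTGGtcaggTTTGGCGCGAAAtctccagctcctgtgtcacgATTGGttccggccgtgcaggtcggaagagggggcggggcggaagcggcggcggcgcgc
PCNA: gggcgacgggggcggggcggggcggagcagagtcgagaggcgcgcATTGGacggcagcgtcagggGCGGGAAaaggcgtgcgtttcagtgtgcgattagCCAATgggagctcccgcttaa
ORC6: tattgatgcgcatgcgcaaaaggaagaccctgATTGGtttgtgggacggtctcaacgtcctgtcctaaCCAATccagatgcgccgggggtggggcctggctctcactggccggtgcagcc
These lie at chr16:85688955-85689074 on the minus strand, chr2:135876444-135876563 on the minus strand, chr20:5126627-5126746 on the minus strand and chr16:46689523-46689642 on the plus strand. The GINS2 gene as counted begins further upstream, so its window lies inside that gene, 999 bases or more downstream of the listed start, while the other 3 windows lie before the starts listed in the count table. The GINS2 window has GCGGGAA 31 bases before the RefSeq start, the PCNA window has it 59 bases before the RefSeq start between a pair of CCAAT boxes, and the ORC6 window has CCAAT boxes only. Genes with and without any of the E2F letters had nearly the same median change. With GFI1 in attached cells the medians were -0.48 for the 18 with and -0.46 for the 23 without. With suspension in control cells they were -0.67 and -0.70. For the 6 genes with the long letters (TTTCGCGC or TTTGGCGC), the median with GFI1 in attached cells was -0.55, against -0.46 for the other 35. With suspension in control cells the medians were -0.69 and -0.68. For the 6 genes with GFI1 letters (MCM6, CDC45, RFC3, RRM2, TK1 and TIMELESS), the median with GFI1 in attached cells was -0.56, against -0.46 for the other 35. The 6 changes ran from -0.75 (RFC3) to -0.26 (RRM2). With suspension in control cells the medians were -0.71 and -0.67. Whether any of these letters has a part in the changes was not tested.

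Licensing genes fell, with ORC6 in floating cells as the exception. The 6 genes of this group are ORC1 and ORC6 of the origin recognition complex, the loaders CDC6 and CDT1, geminin (GMNN), which blocks CDT1 after origins fire, and DTL, which directs the destruction of CDT1 in S phase. All 6 fell with GFI1 in attached cells (median -0.46), 5 of 6 fell with GFI1 in floating cells (median -0.37), and all 6 fell with suspension in both cell types (medians -0.74 in control and -0.57 in GFI1 cells). CDC6 was at 94.7, 93.2 and 87.1 CPM in attached control, 63.9, 62.3 and 64.04 CPM in attached GFI1, 55.9, 52.2 and 54.7 CPM in floating control and 40.5, 42.2 and 44.4 CPM in floating GFI1. None of the 4 groups overlapped. Its log2 fold change was -0.76 ± 0.05 (SE) with suspension in control cells and -0.53 ± 0.05 with GFI1 in attached cells (edgeR adjusted p = 5.55e-12 and 4.81e-10).

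ORC6, the smallest subunit of the origin recognition complex, had floating levels that did not separate with GFI1. Its values were 46.6, 42.5 and 44.02 CPM in attached control, 34.1, 33.5 and 31.4 CPM in attached GFI1, 23.8, 26.7 and 25.04 CPM in floating control and 24.99, 22.8 and 22.4 CPM in floating GFI1. The floating groups overlapped, and the log2 difference between them was -0.11, with a 95% confidence interval from -0.25 to 0.04 (adjusted p = 0.192), against -0.43 ± 0.06 in attached cells (adjusted p = 1.77e-06).

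The MCM2-7 genes fell together. All 6 genes fell in each of the comparisons with GFI1 or suspension, with medians of -0.64 and -0.67 with GFI1 in attached and floating cells, -0.79 and -0.77 with suspension in control and GFI1 cells, and -1.42 with both. MCM3 was at 155, 159 and 150 CPM in attached control, 83.7, 78.97 and 81.3 CPM in attached GFI1, 98.9, 97.4 and 93.6 CPM in floating control and 47.1, 47.1 and 56.9 CPM in floating GFI1, where replicate 3 lay above the other 2. The groups did not overlap. The changes of MCM3 with GFI1 were among the largest of the 46 genes, and GFI1 lowered it by 47.5% in attached cells (log2 -0.93 ± 0.05, adjusted p = 8.74e-14) and by 47.8% in floating cells (log2 -0.94 ± 0.06, adjusted p = 2.96e-13).

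MCM5 had one of the largest falls with suspension in GFI1 cells. It went from 91.5, 93.3 and 96.4 CPM in attached GFI1 to 45.1, 42.5 and 51.4 CPM in floating GFI1, a log2 fold change of -1.02 ± 0.06 (adjusted p = 1.81e-12), and from 140.5, 136 and 139 CPM in attached control to 81.8, 70.5 and 74.3 CPM in floating control, a change of -0.87 ± 0.06 (adjusted p = 4.8e-12). Per length, in TPM (transcripts scaled for gene length and library size, computed from the counts and the listed gene lengths), the 6 subunits were not at equal levels. The listed length is 1 value per gene, and which transcripts these cells make was not measured, so orders per length depend on that value. MCM5 and MCM6 had means of 138.4 and 137.1 CPM in attached control, with listed lengths of 7338 and 4118 bases. In attached control MCM7 was at 309.5 ± 2.52 TPM (SD), MCM4 at 161 ± 2.78, MCM3 at 130.3 ± 3.49, MCM6 at 102 ± 2, MCM2 at 69.8 ± 2.17 and MCM5 at 57.99 ± 0.936 TPM. In floating GFI1 the order of means was the same, from 145 ± 6.65 TPM for MCM7 to 22.4 ± 2.11 TPM for MCM5, but the libraries of MCM3 (48.97 ± 5.16 TPM) and MCM6 (43.3 ± 4.01 TPM) overlapped.

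**Figure D2:**
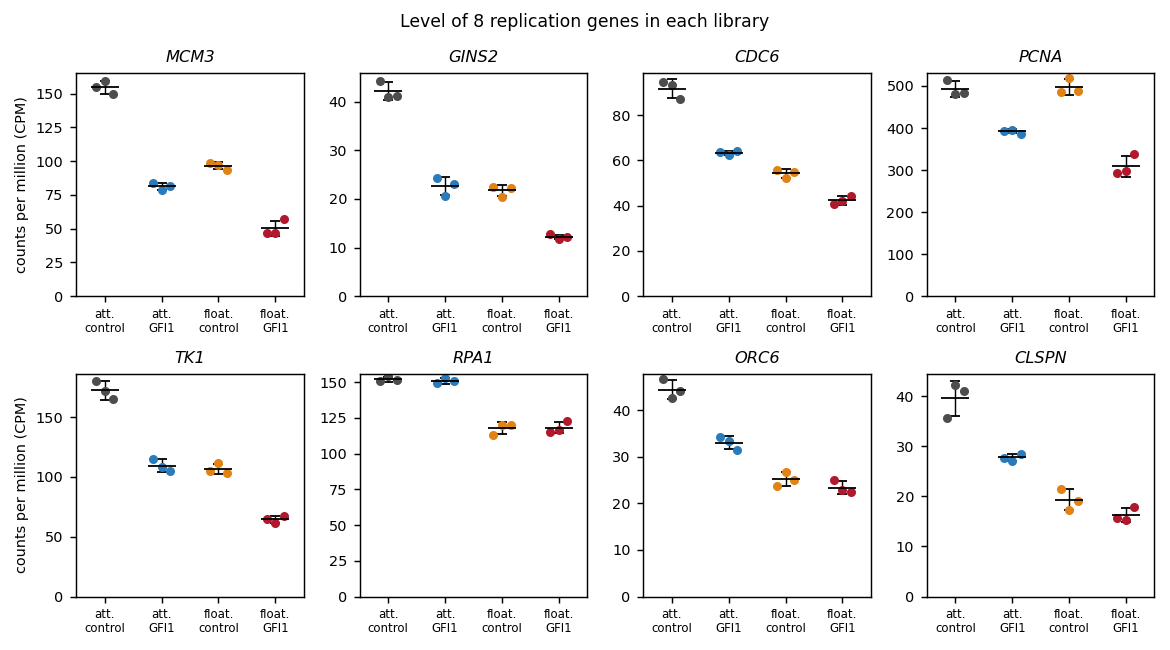
CPM of 8 replication genes in each library (points), with the mean and SD of 3 libraries (bars), in attached (att.) and floating (float.) control and GFI1 cells. MCM3, GINS2, CDC6 and TK1 are lowest in floating GFI1, PCNA overlaps between attached and floating control, and RPA1 is at 151 to 154 CPM in attached control and 149 to 153 CPM in attached GFI1.

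All 8 helicase activation genes fell in every comparison with GFI1 or suspension. These are the kinase pair CDC7 and DBF4, the helicase partner CDC45, the 4 GINS subunits and MCM10, which helps start unwinding. Their medians were -0.51 and -0.47 with GFI1 in attached and floating cells, and -0.64 and -0.58 with suspension in control and GFI1 cells. GINS2, whose bases before the RefSeq start are printed above, was at 44.2, 40.8 and 41.2 CPM in attached control, 24.3, 20.6 and 23.03 CPM in attached GFI1, 22.5, 20.4 and 22.3 CPM in floating control and 12.7, 11.8 and 12.1 CPM in floating GFI1. Attached GFI1 and floating control overlapped, and floating GFI1 lay below both. Its log2 fold change was -0.90 ± 0.07 for GFI1 in attached cells (adjusted p = 2.44e-11) and -0.95 ± 0.07 for suspension in control cells (adjusted p = 5.68e-11). Both together left 29.1% of the attached control level.

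GINS1, a subunit of the same complex, was at 123, 121 and 116 CPM in attached control, 79.4, 78.4 and 77.3 CPM in attached GFI1, 64.7, 62.8 and 71.5 CPM in floating control and 49.3, 50.3 and 57.5 CPM in floating GFI1. GFI1 lowered it by 34.9% in attached cells but by 20.9% in floating cells. Although the 4 GINS proteins form one complex, their mRNAs were far apart per length: 90.9 ± 1.83 TPM for GINS1, 39.6 ± 1.33 for GINS2, 23.3 ± 1.81 for GINS4 and 11.7 ± 0.824 for GINS3 in attached control. In floating GFI1 the libraries of GINS2 (13.3 ± 0.552 TPM) and GINS4 (11.7 ± 1.12 TPM) overlapped.

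The polymerase and primase genes, like every other role group, had smaller medians with GFI1 than with suspension. Of POLA1, POLA2 and PRIM1 of the primase complex, POLD1 of the lagging strand polymerase and POLE and POLE2 of the leading strand polymerase, 5 of 6 fell with GFI1 in attached cells and all 6 fell in the other 3 comparisons. The medians were -0.36 and -0.36 with GFI1, and -0.66 and -0.59 with suspension. POLD1 was at 126, 127 and 122 CPM in attached control, 98.8, 90.1 and 92.5 CPM in attached GFI1, 79.4, 75.01 and 76.5 CPM in floating control and 64.9, 62.9 and 67.2 CPM in floating GFI1, with no overlap between groups. Suspension changed it by -0.70 ± 0.05 on the log2 scale in control cells (adjusted p = 6.78e-12).

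PRIM1, the catalytic subunit of primase, did not follow the rest. It was at 17.9, 16.1 and 17.3 CPM in attached control and 15.7, 18 and 17.7 CPM in attached GFI1, a log2 difference of 0.01 with a 95% confidence interval from -0.23 to 0.25 (adjusted p = 0.945). In suspension it was at 15.1, 12.5 and 10.03 CPM in control and 11.6, 7.83 and 9.75 CPM in GFI1 cells, so its libraries spread widely. The fall with GFI1 in floating cells (-0.36 ± 0.13, adjusted p = 0.0214) was lost without floating control 1 or floating GFI1 2 (adjusted p = 0.211 and 0.132), and the fall with suspension in control cells (-0.45 ± 0.12, adjusted p = 0.00492) was lost without floating control 3 (adjusted p = 0.0568). POLA2, the lowest of the 46 genes per length at 6.79 ± 0.966 TPM in attached control, lost its GFI1 call in attached cells without attached control 3 or attached GFI1 3 (adjusted p = 0.16 and 0.0691), and in floating cells without floating control 1 or 3 or floating GFI1 2 or 3 (adjusted p from 0.0554 to 0.116). Exons of PRIM1 and POLA2 share 10.9% and 16.8% of their bases with another annotated protein-coding gene on the same strand, so reads in these stretches could have been split.

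PCNA, the ring that holds the polymerases on DNA, was the exception to the suspension response. Its values were 515, 480 and 483 CPM in attached control, 393, 396 and 387 CPM in attached GFI1, 486, 518 and 487 CPM in floating control and 292, 297 and 337 CPM in floating GFI1. The 2 control groups overlapped, while floating GFI1 lay below all other groups. In control cells the log2 difference with suspension was 0.01, with a 95% confidence interval from -0.09 to 0.11 (adjusted p = 0.871), while the next gene in order, RPA3, was at -0.35. In GFI1 cells PCNA fell by 21.2% with suspension (log2 -0.34 ± 0.05, adjusted p = 5.67e-06), and its change with GFI1 was -0.33 ± 0.05 when attached and -0.69 ± 0.05 when floating (adjusted p = 2.2e-06 and 6.68e-12). PCNA also had the highest level per length of the 46 genes in all 4 groups, at 1030 ± 30.5 TPM in attached control and 745 ± 55.2 TPM in floating GFI1.

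The genes around PCNA fell with suspension. Its loader subunits RFC2, RFC3, RFC4 and RFC5, the flap nuclease FEN1 and the ligase LIG1, which process and join lagging strand fragments, all fell in each comparison, and the medians of the whole group of 7 were -0.42 and -0.45 with GFI1 and -0.61 and -0.54 with suspension. RFC2 was at 53.2, 47.2 and 53.7 CPM in attached control, 26.8, 27.3 and 28.3 CPM in attached GFI1, 32.9, 32.4 and 35.4 CPM in floating control and 17.1, 19.2 and 18.5 CPM in floating GFI1. GFI1 lowered RFC2 by 46.5% in attached cells (log2 -0.90 ± 0.06, adjusted p = 4.35e-12). RFC3 was at 62.2, 66.2 and 65.1 CPM in attached control, 39.4, 37.4 and 38.7 CPM in attached GFI1, 37.3, 37.5 and 38.5 CPM in floating control and 25.2, 26.6 and 31.1 CPM in floating GFI1, and here attached GFI1 and floating control overlapped. Per length, the order of the loader subunits was not fixed: RFC2 (71.5 ± 5.13 TPM) and RFC3 (69.03 ± 2.83 TPM) overlapped at the top in attached control, and in floating GFI1 RFC2 stood at 29.4 ± 1.53 TPM, with RFC5 at 32.8 ± 1.45 and RFC3 at 34.1 ± 3.58 TPM.

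The single-strand binding genes had the smallest medians of the 9 role groups. RPA1, RPA2 and RPA3 encode the trimer that coats unwound DNA in replication and also in repair. With suspension all 3 fell in both cell types (medians -0.37 and -0.36), but with GFI1 only RPA3 passed the test, in attached and in floating cells. RPA1 was at 151, 154 and 151 CPM in attached control and 149, 153 and 151 CPM in attached GFI1, and at 113, 120.3 and 120.3 CPM in floating control and 115, 116 and 123 CPM in floating GFI1. The groups with and without GFI1 overlapped, with a log2 difference of -0.01 in attached cells (95% confidence interval from -0.09 to 0.08) and of 0.00 in floating cells (interval -0.09 to 0.09). Suspension lowered RPA1 by 22.4% in control cells (adjusted p = 9.77e-08) and by 21.9% in GFI1 cells (adjusted p = 2.5e-07). The absence of a GFI1 call depends on the scaling: with library totals alone, RPA1 was called higher with GFI1 (0.14 in attached cells, adjusted p = 0.00572, and 0.13 where cells floated, adjusted p = 0.0104), as was RPA2 in floating cells (0.16, adjusted p = 0.0432), while the median of all genes moved to 0.14 in both comparisons.

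RPA3 was at 45.3, 40.3 and 39.7 CPM in attached control, 34.1, 33.5 and 33.5 CPM in attached GFI1, 31.8, 34.5 and 31.9 CPM in floating control and 23.7, 24.4 and 28.6 CPM in floating GFI1. Its GFI1 changes were -0.31 ± 0.07 and -0.35 ± 0.07 on the log2 scale (adjusted p = 0.000369 and 0.000166). RPA2 was at 44.2, 42.2 and 42.2 CPM in attached control, 40.8, 35.6 and 41.1 CPM in attached GFI1, 33.1, 34.3 and 32.1 CPM in floating control and 31.4, 33.4 and 36.5 CPM in floating GFI1. With GFI1 in attached cells the log2 difference of RPA2 was -0.13 ± 0.06 (adjusted p = 0.0765). Its fall with suspension in GFI1 cells (-0.21 ± 0.07, adjusted p = 0.0144) was lost without attached GFI1 1 or 3 or floating GFI1 1 (adjusted p from 0.0779 to 0.0986).

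Nucleotide supply genes fell with both changes. RRM1 and RRM2 form ribonucleotide reductase, TYMS makes thymidylate, and TK1 salvages thymidine in S phase. All 4 fell with GFI1 in attached cells (median -0.35) and with suspension in control and GFI1 cells (medians -0.63 and -0.58), and 3 of 4 fell with GFI1 in floating cells (median -0.28). TK1 was at 180.4, 172 and 165 CPM in attached control, 115, 108 and 105 CPM in attached GFI1, 105, 112 and 103 CPM in floating control and 64.5, 61.1 and 67.6 CPM in floating GFI1, so that attached GFI1 and floating control overlapped while both combined lay below. Its log2 fold changes were -0.66 ± 0.05 with GFI1 in attached cells and -0.70 ± 0.05 with suspension in control cells (adjusted p = 1.12e-11 and 2.41e-11).

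TYMS was at 45.4, 40.6 and 44.5 CPM in attached control, 32.7, 35.1 and 32.9 CPM in attached GFI1, 27.1, 30.8 and 29.8 CPM in floating control and 27.1, 26.2 and 26.3 CPM in floating GFI1. It was the nucleotide supply gene that did not pass the GFI1 test in floating cells (-0.14, 95% confidence interval from -0.28 to -0.003, adjusted p = 0.0724), where the groups overlapped. ENOSF1 lies on the opposite strand over 39.9% of its exon bases, and the strand setting of the counting is not given in the sources used here, so reads of the 2 genes may not be separated. The GFI1 call of RRM2 in floating cells was lost without any 1 of 7 libraries (attached GFI1 1, 2 or 3, floating control 1 or 2, floating GFI1 1 or 2, adjusted p from 0.0578 to 0.276). This call was also lost under DESeq2, upper quartile scaling, library totals alone and no low-count filter. The same held with at least 10 counts in every library and with only the groups compared. Per length, TK1 (285 ± 9.6 TPM) and RRM1 (149 ± 2.49 TPM) stood above RRM2 (62.8 ± 1.81 TPM) and TYMS (54.2 ± 3.13 TPM) in attached control.

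The fork protection genes fell with suspension in both cell types. Claspin (CLSPN) passes the checkpoint signal from stalled forks, TIMELESS and TIPIN form a pair that travels with the fork, and WDHD1 ties the helicase to polymerase alpha. All 4 fell with suspension (medians -0.81 in control and -0.62 in GFI1 cells) and with GFI1 in attached cells (-0.48), and 3 of 4 with GFI1 in floating cells (-0.23). CLSPN was at 35.6, 42.1 and 41.03 CPM in attached control, 27.7, 27.1 and 28.4 CPM in attached GFI1, 21.5, 17.3 and 18.98 CPM in floating control and 15.7, 15.2 and 17.96 CPM in floating GFI1. With suspension in control cells it had one of the largest changes of the 46 genes, -1.04 ± 0.08 (adjusted p = 1.7e-10), to less than 50% of its attached level. Its floating groups overlapped, and the GFI1 call there (-0.24 ± 0.09, adjusted p = 0.024) was lost without floating control 1, floating GFI1 1 or floating GFI1 2 (adjusted p from 0.0986 to 0.177).

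TIPIN was at 28.2, 24.7 and 24.1 CPM in attached control, 17.4, 19.8 and 18.6 CPM in attached GFI1, 12.98, 13.4 and 14.3 CPM in floating control and 11.03, 10.8 and 13.03 CPM in floating GFI1. Suspension in control cells changed it by -0.92 ± 0.09 (adjusted p = 6.17e-09), and the GFI1 difference in floating cells did not pass the test (-0.22 ± 0.10, adjusted p = 0.0534). A processed pseudogene shares 21.1% of its exon bases, so reads in that stretch may not be separated. The effect on the level of TIPIN was not measured. Exons of MCM2, GINS3 and GINS4 share 23.6%, 10.9% and 21% of their bases with antisense RNA genes.

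Both chromatin assembly genes fell with GFI1 and with suspension in both backgrounds. CHAF1A and CHAF1B are subunits of CAF-1, which places histones on new DNA. CHAF1B was at 42.4, 43.3 and 44.8 CPM in attached control, 25.6, 25.5 and 25.5 CPM in attached GFI1, 22.8, 24.02 and 24.5 CPM in floating control and 13.02, 12.02 and 16.1 CPM in floating GFI1, and fell by 41.3% with GFI1 in attached cells and by 45.3% with suspension in control cells (adjusted p = 1.08e-09 and 6.52e-10). CHAF1A was at 70.1, 71.4 and 70.5 CPM in attached control, 50.5, 49.3 and 53.5 CPM in attached GFI1, 40.5, 39.5 and 38.8 CPM in floating control and 32.7, 30.2 and 38.5 CPM in floating GFI1. With suspension in control cells CHAF1A changed by -0.84 ± 0.06 (adjusted p = 8.43e-11), and its smaller GFI1 change in floating cells (-0.22 ± 0.07, adjusted p = 0.00579) was lost without floating GFI1 2 (adjusted p = 0.077).

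**Figure D3:**
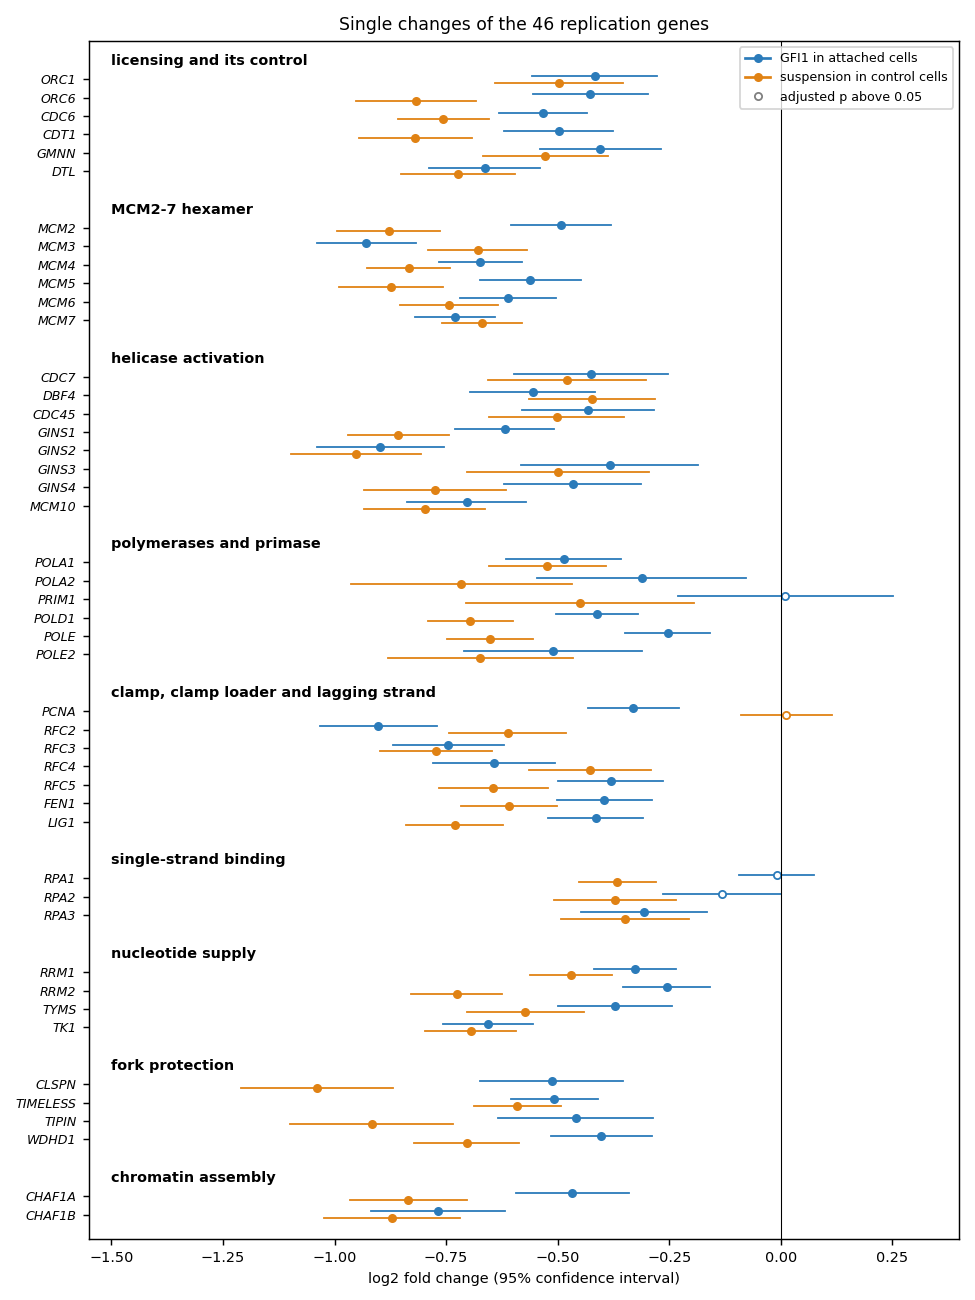
Log2 fold changes of the 46 genes with 95% confidence intervals, for GFI1 in attached cells (blue) and suspension in control cells (orange), by role, with open points where the adjusted p was above 0.05. Both comparisons use the same attached control libraries. PRIM1, RPA1 and RPA2 are the open blue points, and PCNA is the open orange point.

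The additivity of GFI1 and suspension was tested as the interaction, the GFI1 change in floating cells minus that in attached cells. Of the 46 genes, 42 did not pass the test, 1 was lower than the sum of the log2 changes and 3 were higher, beside 6.01% lower and 4.76% higher among all genes tested. The median interaction was 0.03 log2 units, 36 of the 46 genes were within 0.2 of 0, and for 33 genes the 95% confidence interval included 0. Among all genes tested, 15910 of 17829 did not pass, with a median of -0.004 and quartiles at -0.19 and 0.16. The counts within 0.2, of intervals including 0, and for the product and the sum were not made over all genes. DESeq2 called 3 of the 46. The GFI1 level differed between the attached and floating GFI1 cells that the interaction compares, and its part was not tested. On the linear scale, the log2-additive expectation (the product of both folds) was nearer to the measured floating GFI1 level for 43 genes, and the sum of the CPM changes was nearer for 3 (ORC1, RPA3 and RRM1). For PCNA, PRIM1 and RPA1, where one single change was near 0, both expectations were almost the same.

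The measured level in floating GFI1 was 77.5% (PRIM1) to 124.9% (ORC6) of the product, with a median of 102%, and 29 genes were within 10% of it. Against the sum, the range was 77.3% to 535% with a median of 142%, and 4 genes were within 10%. GINS2 shows the difference: subtracting both CPM changes from 42.1 CPM would leave 2.29 CPM, multiplying both folds would leave 11.7 CPM, and the measured mean was 12.2 ± 0.423 CPM (SD, n = 3). MCM3 was measured at 50.4 ± 5.62 CPM, with 50.8 CPM from the product and 23.3 CPM from the sum. None of the MCM2-7 genes passed the interaction test, and their median interaction was -0.01. The role groups were not alike in this. The median was 0.22 for the 4 fork protection genes (0.03 to 0.27, 0 passing the test). It was 0.165 for the 6 licensing genes (-0.26 to 0.32), where only ORC6 passed.

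PCNA fell below additivity, with an interaction of -0.36 ± 0.07 (SE) log2 units, a 95% confidence interval from -0.50 to -0.21 and an adjusted p of 0.001 (edgeR). It was measured at 309 ± 24.9 CPM, against 395 CPM from the product. The call held without each single library (highest adjusted p over all settings 0.0062). ORC6, GINS1 and RFC3 lay above additivity, at 0.32 ± 0.09, 0.28 ± 0.08 and 0.30 ± 0.09 (adjusted p = 0.0265, 0.0215 and 0.0301), which means that GFI1 lowered them less in floating than in attached cells. These 3 calls are less firm. ORC6 lost its call without attached control 1, attached GFI1 3, floating control 1, floating control 3 or floating GFI1 1 (adjusted p from 0.0535 to 0.105), and GINS1 lost it without attached control 1, attached GFI1 3, floating control 1, floating control 2 or floating GFI1 3 (0.0511 to 0.0776). RFC3 lost it under DESeq2 and without 7 of the 12 libraries, namely attached control 2 or 3, attached GFI1 2 or 3, floating control 1 or 2, or floating GFI1 3 (0.0581 to 0.127).

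**Figure D4:**
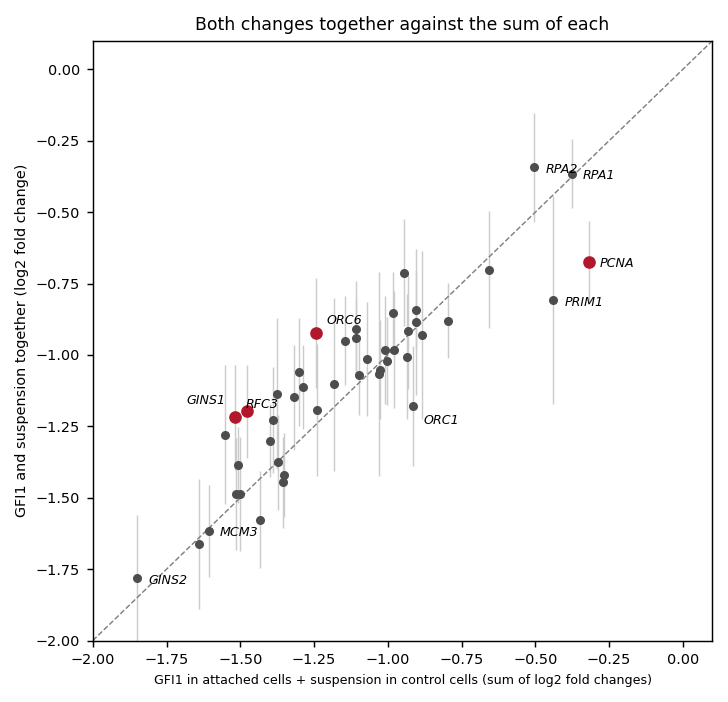
Log2 fold change from attached control to floating GFI1 (vertical) against the sum of the log2 changes of GFI1 in attached cells and suspension in control cells (horizontal), 1 point per gene. The dashed line marks equality, vertical lines are the 95% confidence interval of the interaction, and both axes share the attached control libraries. The 4 red genes passed the interaction test, with PCNA 0.36 below the line and ORC6, RFC3 and GINS1 0.28 to 0.32 above it.

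Genes that work beside these 46 were taken from separate lists. The shares among all genes tested were 32.8% lower and 29.5% higher with GFI1 in attached cells. With suspension in control cells they were 20.5% lower and 19.6% higher. Of 25 other genes of the replication machinery, 15 were lower and 3 higher with GFI1 in attached cells (median -0.22), and 18 were lower and 1 higher with suspension in control cells (median -0.35). MCMBP, which binds MCM rings off chromatin, was lowest in adjusted p with GFI1 (-0.93 ± 0.04, adjusted p = 3.14e-16), and TICRR, needed to fire origins, with suspension (-0.69 ± 0.06, adjusted p = 2.02e-10). POLD4, the small subunit of polymerase delta, was higher in both, by 0.43 ± 0.07 and 0.39 ± 0.08 (adjusted p = 1.71e-05 and 0.000159). ORC4 did not pass the test in either comparison (-0.04 and -0.10).

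Of 9 other nucleotide supply genes, 7 were lower and 1 was higher with GFI1 in attached cells, and 5 were lower and 1 was higher with suspension in control cells. Beside this, 32.8% of all genes tested were lower and 29.5% higher with GFI1, and 20.5% lower and 19.6% higher with suspension. CTPS1, which makes CTP, was lowest in adjusted p in both, with -0.99 ± 0.05 and -1.10 ± 0.05 (adjusted p = 6.9e-16 and 1.66e-15). The genes that rose were not S phase enzymes: TK2, the mitochondrial thymidine kinase, rose with GFI1 (0.68 ± 0.05, adjusted p = 3.49e-11), and RRM2B, the p53-responsive subunit of ribonucleotide reductase, rose with suspension (0.15 ± 0.05, adjusted p = 0.0116). Of 8 other genes of chromatin replication, 6 were lower and 1 was higher with GFI1, and 7 were lower and 1 was higher with suspension. HELLS, a chromatin remodeller, was lowest in adjusted p with GFI1 (-1.08 ± 0.06, adjusted p = 2.08e-14), and UHRF1, which guides DNA methylation to new strands, with suspension (-1.22 ± 0.07, adjusted p = 8.02e-13). The histone chaperone ASF1A rose in both (0.98 ± 0.07 and 0.30 ± 0.08, adjusted p = 1.15e-11 and 0.00278), while its paralog ASF1B fell in both (-0.67 ± 0.05 and -0.86 ± 0.06, adjusted p = 5.56e-11 and 5.53e-12).

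Of 19 E2F and G1/S regulators, 14 were lower and 3 were higher with GFI1 in attached cells (median -0.28), and 14 were lower and 1 was higher with suspension in control cells (median -0.46). Here too, all genes tested were 32.8% lower and 29.5% higher with GFI1, and 20.5% lower and 19.6% higher with suspension. MYBL2, an E2F target that encodes the transcription factor B-MYB, was lowest in adjusted p in both (-0.75 ± 0.05 and -1.004 ± 0.05, adjusted p = 1.2e-12 and 4.41e-14). The pocket protein genes, whose products restrain E2F, did not move together: RB1 rose with GFI1 (0.43 ± 0.05, adjusted p = 1.52e-07), and RBL2 rose with GFI1 and with suspension (0.42 ± 0.05 and 0.33 ± 0.05, adjusted p = 1.83e-07 and 1.84e-05). RB1 did not pass the test with suspension (-0.11 ± 0.06, adjusted p = 0.149), and RBL1 fell with GFI1 and with suspension (-0.27 ± 0.06 and -0.73 ± 0.06, adjusted p = 0.000249 and 3.09e-10). The E2F1 gene itself fell by 30.2% with GFI1 and by 46.6% with suspension. Of 20 genes of G2 and M phase, 19 were lower with GFI1 in attached cells (median -0.45) and all 20 with suspension in control cells (median -0.49), with BIRC5 (-0.69 ± 0.04, adjusted p = 4.03e-13) and CDC20 (-0.93 ± 0.05, adjusted p = 5.49e-14) lowest in adjusted p. Their summed level was 4116 to 4139 CPM in attached control, 3065 to 3195 in attached GFI1, 2847 to 2932 in floating control and 2043 to 2296 CPM in floating GFI1, so genes of mitosis were lower together with those of replication.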

How the data were processed

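RNA-Seq was done by the authors on 12 libraries of poly-T selected mRNA. The deposited values are raw counts per gene on hg38. The study's methods name Hisat2 for alignment and featureCounts for counting, while the submitters' processing notes name Bowtie2 and HTSeq. Which was used could not be settled, and the annotation release and the strand setting are not given in the sources used here. The table also holds gene positions and a gene length, used for TPM. That length may differ from the length of the transcripts made in these cells, so orders of genes by TPM are uncertain to an extent not measured here. GENCODE v44 served for exon overlaps.

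Groups and replicate numbers came from the labels. Testing used edgeR 4.0.16 under R 4.3.3. Its filterByExpr (minimum count 10, minimum total 15) left 17829 genes, libraries were scaled by TMM, and a quasi-likelihood model of the 4 group means was fitted to all 12 libraries (biological coefficient of variation 4.86%). Tests were two-sided over 7 contrasts, with Benjamini-Hochberg adjustment over all genes within each. Intervals are 95%. At 17014188 to 20748677 counts per library, each of the 46 genes was well above 3 counts, the level taken as not detected. The lowest count of a member in any library was 102 (POLA2), and for such genes counting error adds to the spread between libraries. The code was tested on simulated data.

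The members, the gene lists and the contrasts were chosen with earlier results of these data known. Values per library are given for the 3 genes with the lowest and the 2 with the highest change in each of the 4 single comparisons, the gene with the lowest adjusted p of each role group, and genes with a called interaction. In each other list, 1 gene per direction is named, by lowest adjusted p, for GFI1 in attached cells and suspension in control cells. ORC4, E2F1, ASF1B, RBL1, the RBL2 value with GFI1, the RB1 value with suspension and the markers of other cell types were added after their values were seen, as were the genes named for lost calls. Alternatives were DESeq2 1.42.0, other scalings, filters, models and leaving out each library.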

Additional observations from a re-analysis of the deposited data

Results flagged for a closer look

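For 4 genes, the GFI1 change differed between floating and attached cells in the interaction test (edgeR, adjusted over all genes). The difference in log2 fold change, floating minus attached, was -0.36 for PCNA (adjusted p = 0.001), 0.28 for GINS1 (adjusted p = 0.0215), 0.32 for ORC6 (adjusted p = 0.0265) and 0.30 for RFC3 (adjusted p = 0.0301). All 3 floating GFI1 libraries of PCNA were below every library of the other groups. The adjusted p of the other 3 genes ranged up to 0.0776, 0.105 and 0.127 over the alternatives, and that of PCNA up to 0.0062. GFI1 itself was at 285.6 to 294.4 CPM in attached GFI1 and 430.2 to 705.5 CPM in floating GFI1, and the part of this difference was not tested.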

How the results depend on the processing

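The number of lower genes among the 46 kept within 1.5 times its value in all single comparisons under DESeq2, RLE size factors, upper quartile scaling, other filters, robust empirical Bayes, only the groups compared and without each library. A requirement of at least 2-fold as well, which can only lower a count, left 0, 0, 1, 1 and 28 (GFI1 in attached and floating cells, suspension in control and GFI1 cells, both together). It left 0 in the interaction and 0 for floating control against attached GFI1. The lowest log2 values of the 46 genes there were -0.37 and -0.53, and the highest were 0.32 and 0.34. Scaling by library totals alone gave 39 in that last comparison. The number of genes with a called interaction was 1 to 5 without single libraries: 2 without attached control 1, 1 without attached GFI1 3, 1 without floating control 1, 2 without floating control 2 and 2 without floating GFI1 3. The cause was not tested.

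With upper quartile scaling the median of the 46 was -0.414 (GFI1 in attached cells), -0.368 (GFI1 in floating cells) and -0.996 (together), and with library totals alone -0.319, -0.286, -0.913 and -0.288 (floating control against attached GFI1). Without single libraries the medians ran from -0.498 (without floating GFI1 3) to -0.381 for GFI1 in floating cells, from -1.095 to -1.01 together, and from -0.641 (without floating GFI1 3) to -0.565 for suspension in GFI1 cells.

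Signs turned for values whose log2 change was close to 0, and of these RPA1 in attached cells passed the test with library totals (adjusted p = 0.00572). PCNA with suspension in control cells ran from -0.02 to 0.0434 without single libraries. PRIM1 with GFI1 in attached cells was -0.00858 with no low-count filter and -0.0355 to 0.0685 without single libraries. RPA1 with GFI1 in attached cells was 0.0425 with upper quartile scaling, 0.138 with library totals, 0.0169 with at least 10 counts in every library, 0.0212 with only the groups compared, and -0.022 to 0.0138 without single libraries. RPA1 in floating cells was -0.00117 with DESeq2, -0.00128 with RLE and -0.000468 with no filter, and -0.0283 to 0.0288 without single libraries, and RPA2 there was -0.0327 to 0.0867.

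Library totals alone ended the GFI1 calls of 2 genes in attached cells (POLA2 and POLE) and 8 in floating cells. Upper quartile scaling ended that of POLA2 in attached cells and those of POLA2, RRM2 and CLSPN in floating cells. With only the groups compared, PRIM1 and RRM2 lost theirs in floating cells. With the replicate number as a replicate block, 4 genes kept a called interaction and 0 calls were lost in the 4 single comparisons. Same-numbered libraries did not deviate together (18 pairs, correlations from -0.031 to 0.031). The labels do not say whether equal numbers mark cultures handled together, and these correlations cannot settle it.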
